A study of Mus musculus with 8 samples.

Results

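The 76 genes described here were the ones whose RNA stood low in one wild type testis and high in the other wild type testes at postnatal day 12. They were chosen by measured values: counts were summed per gene symbol and divided by the total of each library to give CPM (counts per 1000000 counts), and a gene was kept if wild type replicate 4 had 5 CPM or more and at least 4 times the level of replicate 3, with replicates 1 and 2 each at least 2 times replicate 3. Of 24651 genes, 8821 reached 5 CPM in wild type replicate 4 and 91 met all values. The rule also left out by name Piwil1, Mybl1 and symbols that start with Morc, Adam, Dnah, Rsph, Spag, Tekt, Cfap or Ccdc, which removed 15 of the 91. The Morc2b-/- libraries played no part in the choice.

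In the first wave of mouse spermatogenesis, germ cells enter meiosis together, pass through leptotene and zygotene, and reach pachytene, the stage of full synapsis between homologous chromosomes, in the second week after birth. At that stage a large transcription program starts, for which the transcription factor MYBL1 (A-MYB) is known, and many genes of the later sperm tail, sperm surface and sperm metabolism are switched on long before sperm exist. The RNA of such genes is scarce in testes of this age and rises as pachytene cells appear. For day 12 testes, the authors placed the most advanced germ cells at zygotene.

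RNA came from 8 pairs of whole testes of day 12 males on a mixed strain background, 4 labelled wild type and 4 labelled Morc2b-/-. Every male was born to Morc2b+/- parents. The mutant allele, in which a PGKNeo cassette takes the place of the coding exon (exon 2), traces back to a single targeted V6.5 embryonic stem cell clone. The series' design line calls the controls Morc2b+/- where the sample labels and the methods call them wild type. The libraries are named WT1 to WT4 and KO1 to KO4 below, after the labelled genotype and the replicate number.

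Counts on transcripts ranged from 27144796 to 36941755 per library. Morc2b itself, chromosome 17, 33272533 to 33276628, minus strand (mm9), stood at 11.8, 16.3, 0.866 and 39.3 CPM in WT1 to WT4 and 0.323, 0.271, 3.31 and 0.0676 CPM in KO1 to KO4. The library labelled WT3 thus had less Morc2b RNA than the library labelled KO3, while WT1, WT2 and WT4 exceeded every Morc2b-/- library, and reads over the deleted exon were not told apart from the rest of the transcript. Markers of Sertoli cells were present at 12122 to 14397 summed CPM in the 8 libraries. The summed CPM of a list of 30 spermatid genes was 219, 27.3, 21.0 and 20.0 in WT1 to WT4 and 38.9, 65.6, 435 and 24.5 in KO1 to KO4, so WT1 and KO3 stood apart, with only Zpbp of that list at 0 in all libraries. WT1 also stood apart in summed CPM of 36 epididymal genes (603, against 205 to 268 in the other libraries) and of 9 peritubular cell genes (2574, against 1275 to 1581). In whole testes, fewer cells of a type and less RNA per cell cannot be told apart.

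Summed over the 76 genes, the level was 915, 873, 211 and 1977 CPM in WT1 to WT4 (the rule set WT3 low and WT4 high) and 214, 499, 757 and 651 CPM in KO1 to KO4. No Morc2b-/- library reached WT2, and KO1 lay next to the library labelled WT3. The median over the 76 genes was 6.40, 5.93, 1.39 and 12.6 CPM in WT1 to WT4 and 1.29, 2.79, 5.40 and 3.67 CPM in KO1 to KO4. The ratio of WT4 to WT3 that chose the genes ran from 4.06 to 140, with a median of 10.8. WT4 was the highest wild type library for 74 genes, and the exceptions were Cetn1, highest in WT1, and Serpina3n, highest in WT2. Just inside the threshold of 4 were Fank1 with a ratio of 4.06, Tesmin with 4.16 and Meig1 with 4.22. Just outside it were Ropn1l with 3.94, Mlc1 with 3.76 and Fam229b with 3.70.

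A list of pachytene spermatocyte genes, 4 of which (Ldhc, Fabp9, Meig1 and Cox8c) are among the 76, was read beside them. Its summed CPM was 3466, 3954, 2877 and 4396 in WT1 to WT4 and 2708, 3781, 3405 and 3891 in KO1 to KO4. Without those 4 genes the sum was 3290, 3852, 2849 and 4110 in WT1 to WT4 and 2672, 3722, 3184 and 3843 in KO1 to KO4. With or without them, the library labelled WT3 and KO1 were the lowest and WT4 the highest. In all, 6 genes of the list met the ratios of the rule. The sum without those 4 therefore still holds genes left out of the 76 only by name or by the floor of 5 CPM. The list was also written with earlier results of these data known, so this order is a description and no independent check. A list of leptotene and zygotene genes, none of them among the 76, had a summed CPM of 5065, 6935, 5274 and 6220 in WT1 to WT4 and 4681, 5588, 4644 and 6653 in KO1 to KO4. Here WT3 lay above WT1 and KO4 above WT4, so the earlier meiotic genes did not order the libraries in the same way. Both this list and the pachytene list did have WT2 and WT4 above WT1 and WT3. Both also had KO2 and KO4 above KO1 and KO3. None of the 76 was on the lists for spermatogonia, spermatids, Sertoli, Leydig or peritubular cells, macrophages, blood or epididymis.

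**Figure D1:**
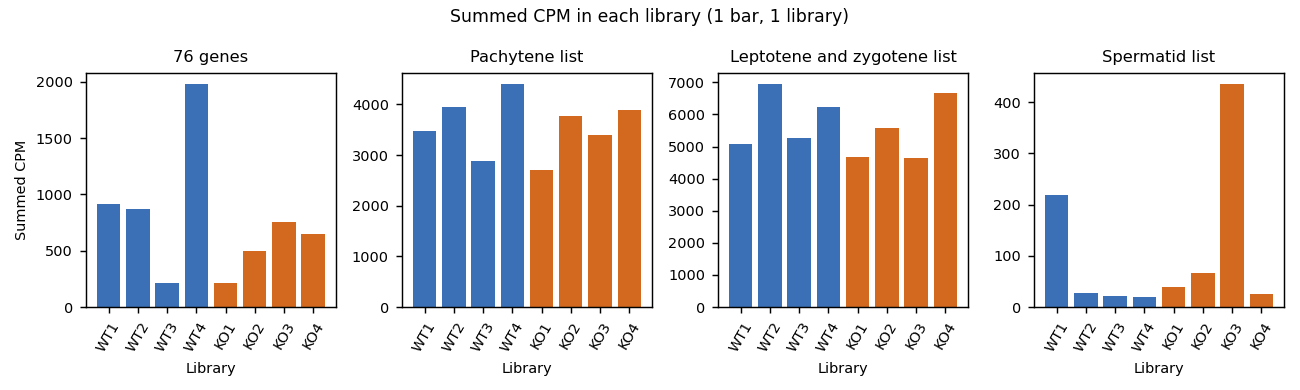
Summed CPM (vertical axis, linear, from 0) in each of the 8 libraries (1 bar each, blue wild type, orange Morc2b-/-) for the 76 genes and for 3 marker lists. The 76 genes were lowest in WT3 and KO1 (211 and 214) and highest in WT4 (1977), whereas the spermatid list was high in WT1 and KO3 only.

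Since the Morc2b-/- libraries were not used to choose the genes, their spread in those libraries was not set by the rule. The ratio of the highest to the lowest Morc2b-/- library was 4 or more for 50 of the 76 genes (65.8%), against 1.47% of the 9293 genes with 5 CPM or more in a wild type library. KO1 was the lowest of the 4 for 64 genes (84.2%, background 30.8%). Without KO3, the ratio reached 4 for 27 genes (35.5%, background 1.02%) and KO1 was the lowest for 64 (84.2%, background 37.1%). Without KO1, it reached 4 for 22 genes (28.9%, background 0.958%). The highest Morc2b-/- library was KO3 for 40 genes (52.6%, background 28.5%), KO4 for 33 (43.4%, background 25.9%), KO2 for 2, Stc1 and Iqcd (2.63%, background 18.2%), and KO1 for 1, Serpina3n (1.32%, background 27.4%). The genes thus varied severalfold among Morc2b-/- testes, mostly with KO1 at the low end and KO3 or KO4 at the high end.

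The rule chose genes low in WT3 and high in WT4, so levels set against these libraries are read beside the same counts over the 9293 genes. KO1 was at or below the library labelled WT3 for 48 genes (63.2%, background 55.2%), KO2 for 10 (13.2%, background 50.5%), KO4 for 8 (10.5%, background 54.2%) and KO3 for 2, 4930463O16Rik and Gm6567 (2.63%, background 46.6%). At the other end, KO3 was at or above WT4 for 7 genes (9.21%, background 54.4%), KO1 for Serpina3n (1.32%, background 53.5%), KO4 for Zfp429 (1.32%, background 51.9%), and KO2 for none (background 55.9%). Every Morc2b-/- library was below each of WT1, WT2 and WT4 for 28 genes (36.8%, background 2.58%), a count that rests on wild type libraries the rule chose to be high. It was 54 without KO3 (71.1%, background 3.86%) and 44 without KO4 (57.9%, background 4.97%). For none of the 76 was every Morc2b-/- library below every wild type library (background 0.624%), and the rule had chosen genes low in WT3. The ratio of the Morc2b-/- mean to the wild type mean ran from 0.0370 to 1.11, with a median of 0.549, and was under 0.2 for 9 genes.

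**Figure D2:**
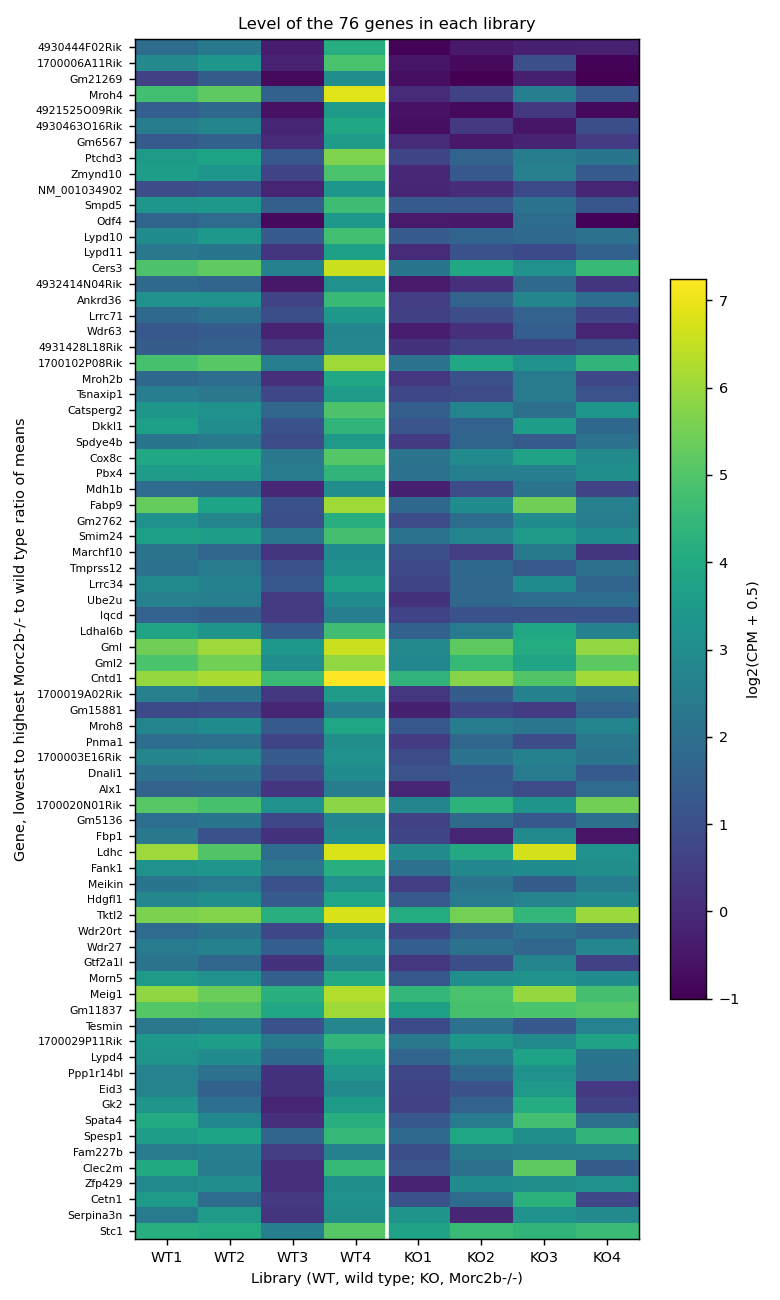
Level of each of the 76 genes (rows, ordered by the ratio of the Morc2b-/- mean to the wild type mean, lowest at the top) in each library (columns), as log2(CPM + 0.5) in colour. The top rows are dark in all 4 Morc2b-/- columns, and further down KO2, KO3 and KO4 brighten while WT3 and KO1 mostly stay dark.

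The 4 genes that mark the group were among those furthest below wild type in Morc2b-/- testes. Mroh4, which encodes a protein of the maestro heat-like repeat family, lies on chromosome 15, 74436459 to 74466691, minus strand, where the mm9 annotation lists it as 1700016M24Rik. It stood at 26.1, 35.9, 2.42 and 114 CPM in WT1 to WT4 and 0.484, 1.00, 5.33 and 1.86 CPM in KO1 to KO4. All Morc2b-/- libraries were far below WT1, WT2 and WT4, but KO3 exceeded the library labelled WT3, so the groups overlapped through WT3. The log2 fold change of Morc2b-/- against wild type in the edgeR fit was -4.37 ± 1.09 (SE, n = 4 per genotype). For log2 fold changes, the SE after ± is approximate, worked out from the fold change and the F statistic of edgeR's test.

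The long non-coding RNA 4930444F02Rik stood at 3.30, 4.57, 0.289 and 17.0 CPM in WT1 to WT4 and 0.0323, 0.244, 0.317 and 0.338 CPM in KO1 to KO4. It was barely above 0 in every Morc2b-/- library and in WT3 alike, and it had the lowest ratio of means of the 76 genes, 0.0370, with a log2 fold change of -4.74 ± 1.09. 1700006A11Rik (chromosome 3, 124103908 to 124128957, minus strand) stood at 6.80, 9.65, 0.361 and 28.7 CPM in WT1 to WT4 and 0.194, 0.0812, 1.50 and 0.0338 CPM in KO1 to KO4. Only KO3 exceeded WT3 for it.

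Smpd5, a sphingomyelin phosphodiesterase that splits sphingomyelin into ceramide, lies on chromosome 15, 76124864 to 76127326, plus strand, and overlaps Oplah on the other strand. It stood at 9.63, 9.95, 2.31 and 25.0 CPM in WT1 to WT4 and 2.07, 1.98, 3.89 and 1.83 CPM in KO1 to KO4. Its Morc2b-/- libraries differed 2.13-fold from lowest to highest, with KO3 above and the others below the library labelled WT3. Lypd10, of the Ly6 and PLAUR domain family, stood at 7.35, 10.1, 2.06 and 26.6 CPM in WT1 to WT4 and 2.10, 2.65, 3.00 and 3.85 CPM in KO1 to KO4, 1.84-fold from lowest to highest in Morc2b-/-.

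More genes were low in all 4 Morc2b-/- testes. The long non-coding RNA Gm21269 had a WT4 to WT3 ratio of 107 and stood at 1.05, 2.17, 0.0722 and 7.69 CPM in WT1 to WT4 and 0.129, 0, 0.317 and 0 CPM in KO1 to KO4. The long non-coding RNA 4921525O09Rik stood at 2.26, 2.84, 0.144 and 10.8 CPM in WT1 to WT4 and 0.161, 0.0812, 0.749 and 0.0676 CPM in KO1 to KO4, and 4930463O16Rik at 5.01, 6.26, 0.397 and 14.9 CPM in WT1 to WT4 and 0.129, 0.785, 0.202 and 1.49 CPM in KO1 to KO4. For all 3, no Morc2b-/- library reached WT1 or WT2. Ptchd3, a patched domain protein of germ cells, stood at 10.8, 13.1, 1.91 and 49.6 CPM in WT1 to WT4 and 1.16, 2.60, 5.19 and 4.12 CPM in KO1 to KO4, with every Morc2b-/- library below WT1, WT2 and WT4, and 3 of them above WT3.

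**Figure D3:**
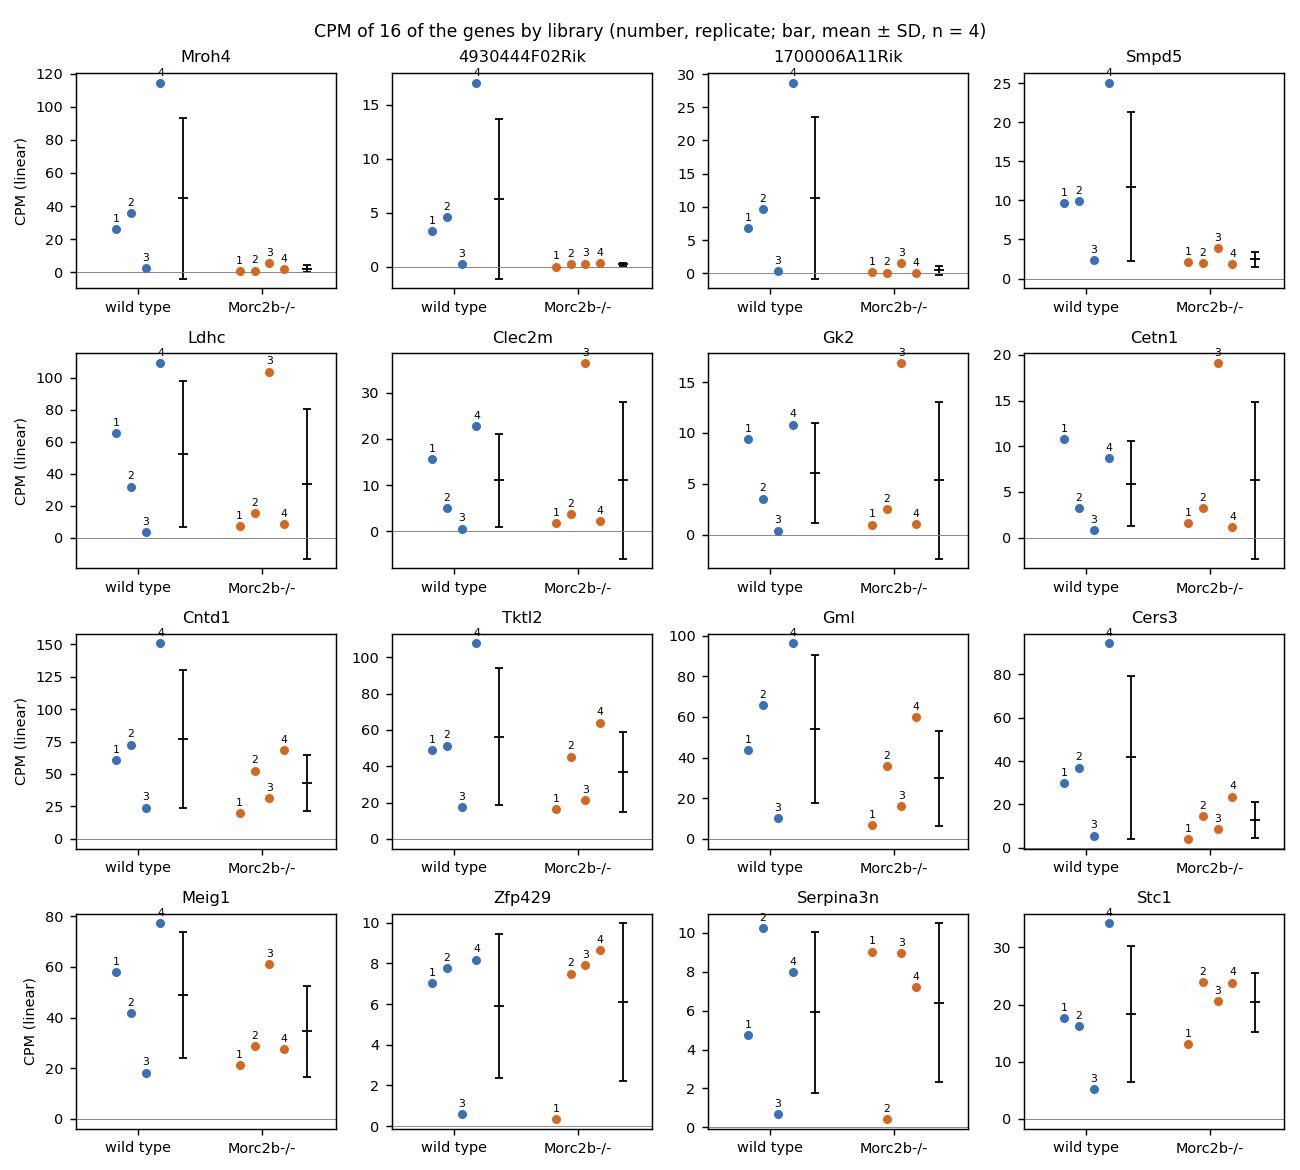
CPM (vertical axis, linear) of 16 of the genes in each library, with the replicate number beside each point and the mean ± SD (n = 4) beside each genotype. The top row stays near the level of WT3 in Morc2b-/-, the second row has its Morc2b-/- peak in KO3, and the third row orders the Morc2b-/- libraries as KO1, KO3, KO2 and KO4.

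A further set of genes was high in KO3. Ldhc, the lactate dehydrogenase subunit of spermatocytes and sperm, lies on chromosome 7, 54116573 to 54133512, plus strand. It stood at 65.3, 31.9, 3.39 and 109 CPM in WT1 to WT4 and 7.20, 15.4, 104 and 8.55 CPM in KO1 to KO4, so that KO3 lay just under WT4 while KO1, KO2 and KO4 lay below WT2. Fabp9, a fatty acid binding protein of testis, stood at 38.3, 13.3, 1.62 and 66.8 CPM in WT1 to WT4 and 2.97, 7.58, 43.4 and 5.48 CPM in KO1 to KO4. It too was higher in WT1 and KO3 than in the other libraries except WT4.

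Clec2m, a C-type lectin domain protein, stood at 15.7, 5.08, 0.577 and 22.7 CPM in WT1 to WT4 and 1.77, 3.63, 36.4 and 2.20 CPM in KO1 to KO4. Gk2, a testis glycerol kinase, stood at 9.38, 3.54, 0.397 and 10.8 CPM in WT1 to WT4 and 1.00, 2.52, 16.9 and 1.01 CPM in KO1 to KO4. Both had their highest level of all 8 libraries in KO3. Cetn1, the centrin of male germ cells, stood at 10.8, 3.24, 0.794 and 8.74 CPM in WT1 to WT4 and 1.61, 3.25, 19.105 and 1.18 CPM in KO1 to KO4, highest in KO3 and then in WT1.

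Spata4, a spermatogenesis-associated protein, stood at 15.9, 6.63, 0.577 and 17.974 CPM in WT1 to WT4 and 1.84, 4.68, 27.0 and 3.65 CPM in KO1 to KO4. Eid3, which is also known as a germ cell subunit of the SMC5/6 complex, stood at 5.92, 2.47, 0.650 and 7.04 CPM in WT1 to WT4 and 1.13, 1.54, 10.1 and 0.777 CPM in KO1 to KO4. Lypd4, a sperm surface protein needed for fertility, stood at 9.02, 7.37, 2.96 and 12.9 CPM in WT1 to WT4 and 2.74, 5.17, 13.1 and 4.12 CPM in KO1 to KO4. KO3 was at or above WT4 for each, whereas KO1, KO2 and KO4 stayed below WT1. Fbp1, the gluconeogenic fructose bisphosphatase, showed the same order less fully, at 4.40, 1.62, 0.650 and 7.38 CPM in WT1 to WT4 and 1.16, 0.406, 7.26 and 0.169 CPM in KO1 to KO4.

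WT1 and KO3, the libraries with the high spermatid list, were compared with their neighbours across the genes, using ratios that the rule did not set. For the 10 genes with WT1 at 1.5 times WT2 or more, KO3 was at 2 times KO4 or more in all 10. Of the 31 genes higher in WT1 than in WT2, 24 were higher in KO3 than in KO4, against 17 of the 45 that were lower in WT1. These counts were not made over the 9293 genes, so they are not shown to be particular to the 76. Across the 76 genes, the log2 ratio of WT1 to WT2 and that of KO3 to KO4 had a Pearson r of 0.68 and a Spearman rho of 0.53, and across the 9293 genes 0.42 and 0.38. These are descriptions across genes of 4 libraries, and the genes are not independent replicates. The part that the higher spermatid list in WT1 and KO3 plays in these levels was not tested, and none of the genes is on that list.

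**Figure D4:**
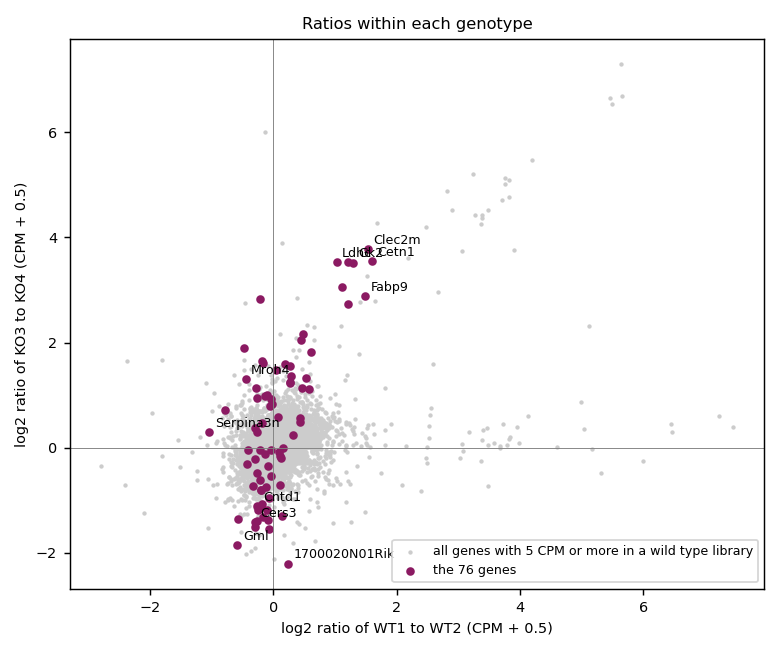
Log2 ratio of WT1 to WT2 (horizontal axis) against log2 ratio of KO3 to KO4 (vertical axis), both of CPM + 0.5, for the 76 genes (purple) and for the 9293 genes with 5 CPM or more in a wild type library (grey). Clec2m, Cetn1, Ldhc, Gk2 and Fabp9 lie at the upper right, and Gml, Cntd1 and Cers3 at the lower left.

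The opposite order was seen for a set that includes meiotic genes. Cntd1, a cyclin-like protein needed for crossover maturation in pachytene, lies on chromosome 11, 101140326 to 101157631, plus strand, and overlaps Becn1 on the other strand. It stood at 60.6, 72.6, 24.0 and 151 CPM in WT1 to WT4 and 20.1, 52.6, 31.2 and 68.4 CPM in KO1 to KO4. KO4 came within the range of WT1 and WT2, KO2 stood somewhat lower, and KO1 and KO3 lay near WT3. Meikin, a meiosis-specific kinetochore protein, stood at 4.10, 4.72, 1.62 and 8.55 CPM in WT1 to WT4 and 0.904, 4.01, 2.19 and 5.14 CPM in KO1 to KO4. Tesmin, a cysteine-rich protein of male meiosis, stood at 4.29, 5.27, 1.59 and 6.61 CPM in WT1 to WT4 and 1.32, 3.68, 1.90 and 5.81 CPM in KO1 to KO4. For both, KO4 was above WT1 and WT2 and below WT4, and KO3 was close to WT3.

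Tktl2, a transketolase-like protein of testis, stood at 48.9, 51.4, 17.3 and 108 CPM in WT1 to WT4 and 16.2, 45.3, 21.4 and 64.0 CPM in KO1 to KO4. The long non-coding RNA 1700020N01Rik stood at 33.4, 28.2, 8.41 and 55.2 CPM in WT1 to WT4 and 6.32, 19.4, 9.19 and 44.2 CPM in KO1 to KO4. KO4 exceeded WT1 and WT2 in each. Spesp1, a protein of the equatorial segment of the sperm head, stood at 11.7, 13.2, 2.71 and 21.8 CPM in WT1 to WT4 and 3.00, 14.3, 8.01 and 20.6 CPM in KO1 to KO4, and its ratio of means was 0.928.

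Gml and Gml2, neighbouring genes of the Ly6 family of membrane-anchored surface proteins, moved alike. Gml stood at 43.7, 65.7, 10.1 and 96.2 CPM in WT1 to WT4 and 6.94, 35.9, 16.2 and 59.9 CPM in KO1 to KO4, and Gml2 at 29.8, 44.5, 7.76 and 59.6 CPM in WT1 to WT4 and 6.65, 22.3, 13.6 and 35.5 CPM in KO1 to KO4. In each, KO4 lay between WT1 and WT2, and KO1 below the library labelled WT3. Their edgeR log2 fold changes were -0.86 ± 0.73 and -0.86 ± 0.62. As paralogs, they may share reads that the counting could not place.

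Genes on a list for the sperm tail and motile cilium made up 10 of the 76, although the name prefixes of most such families had been left out. That list held 83 of the 13507 genes tested and was written with earlier results of these data known, so the count is a description. Zmynd10, a cytoplasmic factor for assembly of axonemal dynein arms, lies on chromosome 9, 107449639 to 107453650, plus strand. It stood at 11.5, 9.47, 1.12 and 28.9 CPM in WT1 to WT4 and 0.452, 1.92, 5.47 and 2.06 CPM in KO1 to KO4, below WT1, WT2 and WT4 in every Morc2b-/- library. Dnali1, a light intermediate chain of axonemal dynein, stood at 3.69, 3.98, 1.44 and 7.38 CPM in WT1 to WT4 and 1.65, 1.92, 4.61 and 2.06 CPM in KO1 to KO4. Wdr63, an intermediate chain of an inner dynein arm, stood at 1.84, 2.14, 0.361 and 6.33 CPM in WT1 to WT4 and 0.290, 0.596, 2.25 and 0.406 CPM in KO1 to KO4.

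KO3 was the highest Morc2b-/- library for all 3, and it exceeded WT1 and WT2 for Dnali1 and Wdr63. Tsnaxip1, an interactor of translin-associated factor X, stood at 5.31, 4.35, 1.19 and 11.3 CPM in WT1 to WT4 and 1.19, 1.35, 4.64 and 1.66 CPM in KO1 to KO4. Lrrc71 stood at 3.00, 3.72, 1.48 and 10.1 CPM in WT1 to WT4 and 0.968, 1.41, 2.54 and 1.08 CPM in KO1 to KO4. Mdh1b, a malate dehydrogenase-like protein, stood at 3.22, 3.13, 0.469 and 7.72 CPM in WT1 to WT4 and 0.323, 1.38, 4.01 and 1.12 CPM in KO1 to KO4. KO1 was below WT3 for Lrrc71 and Mdh1b and at its level for Tsnaxip1.

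Lrrc34 stood at 7.04, 5.67, 1.88 and 12.0 CPM in WT1 to WT4 and 1.16, 2.79, 7.52 and 2.64 CPM in KO1 to KO4, and Morn5 at 10.8, 8.58, 2.35 and 15.9 CPM in WT1 to WT4 and 1.94, 7.82, 8.90 and 7.50 CPM in KO1 to KO4. Meig1, which is needed for assembly of the sperm tail, stood at 58.0, 41.8, 18.3 and 77.1 CPM in WT1 to WT4 and 21.3, 28.7, 61.0 and 27.5 CPM in KO1 to KO4. Fank1, the gene nearest to the threshold, stood at 8.97, 9.28, 4.29 and 17.4 CPM in WT1 to WT4 and 3.71, 6.63, 7.58 and 7.84 CPM in KO1 to KO4. KO1 was below WT3 for Lrrc34, Morn5 and Fank1 and above it for Meig1. Odf4, an outer dense fibre protein of the sperm tail that was not on the cilium list, had the highest WT4 to WT3 ratio, 140, and stood at 2.67, 3.17, 0.0722 and 10.1 CPM in WT1 to WT4 and 0.258, 0.244, 3.28 and 0.0338 CPM in KO1 to KO4.

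Genes of lipid and energy metabolism with forms known from germ cells were the next group. Cers3, the ceramide synthase of very long chain ceramides in spermatocytes and skin, lies on chromosome 7, 73888390 to 73968578, plus strand (annotated as Lass3). It stood at 29.9, 37.0, 5.59 and 94.4 CPM in WT1 to WT4 and 4.07, 14.7, 8.47 and 23.6 CPM in KO1 to KO4, and no Morc2b-/- library reached WT1. Cox8c, a testis form of a cytochrome c oxidase subunit, stood at 14.5, 14.8, 4.40 and 32.9 CPM in WT1 to WT4 and 4.00, 7.01, 13.1 and 7.10 CPM in KO1 to KO4. Ldhal6b, a lactate dehydrogenase-like protein, stood at 13.5, 9.21, 2.17 and 25.8 CPM in WT1 to WT4 and 2.45, 4.60, 15.0 and 5.68 CPM in KO1 to KO4, with KO3 above WT1.

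Catsperg2, an auxiliary subunit of the sperm calcium channel CatSper, stood at 9.88, 8.95, 2.81 and 30.4 CPM in WT1 to WT4 and 2.29, 6.06, 3.60 and 9.63 CPM in KO1 to KO4. KO4 fell within the range of WT1 and WT2, and the other Morc2b-/- libraries below it. Gm11837 stood at 32.9, 30.4, 14.4 and 66.0 CPM in WT1 to WT4 and 12.4, 28.2, 29.4 and 32.9 CPM in KO1 to KO4. 1700102P08Rik stood at 28.3, 33.7, 5.20 and 66.4 CPM in WT1 to WT4 and 3.94, 14.9, 8.79 and 20.6 CPM in KO1 to KO4, with all Morc2b-/- libraries below WT1. 4932414N04Rik stood at 3.14, 2.69, 0.217 and 8.59 CPM in WT1 to WT4 and 0.258, 0.596, 3.14 and 0.710 CPM in KO1 to KO4, with KO3 at the level of WT1.

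A few genes had a Morc2b-/- mean at or above the wild type mean. Zfp429, a zinc finger protein, stood at 7.04, 7.77, 0.613 and 8.18 CPM in WT1 to WT4 and 0.355, 7.50, 7.90 and 8.65 CPM in KO1 to KO4: 6 libraries were alike, and only WT3 and KO1 were low. Serpina3n, a serine protease inhibitor, stood at 4.73, 10.2, 0.686 and 7.97 CPM in WT1 to WT4 and 9.04, 0.433, 8.96 and 7.20 CPM in KO1 to KO4, low in WT3 and KO2, and it was the only gene of the 76 with KO1 above WT4. Stc1, the secreted hormone stanniocalcin, stood at 17.7, 16.2, 5.23 and 34.2 CPM in WT1 to WT4 and 13.1, 24.0, 20.7 and 23.8 CPM in KO1 to KO4, where KO2, KO3 and KO4 exceeded WT1 and WT2. Clec2m, Zfp429, Cetn1, Serpina3n and Stc1 were the 5 genes with the highest ratio of means, 1.00, 1.03, 1.07, 1.08 and 1.11.

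In the comparison of genotypes across all genes, edgeR's quasi-likelihood test called none of the 13507 genes tested (0.0%) with a Benjamini-Hochberg adjusted p under 0.05. None of the 76 was therefore called, although each had enough counts to be tested. The adjusted p was 0.9998 for each of them. In the same edgeR fit it was also 0.9998 for Morc2b (log2 fold change -4.09 ± 1.21) and Piwil1 (-1.93 ± 0.53). The test thus did not call even the mutated gene, and a lack of calls among the 76 does not show equal levels. DESeq2 called none of the 76 either and 1 gene in all, Pkmyt1. At an unadjusted p under 0.05 in edgeR, 16 of the 76 (21.1%) were lower in Morc2b-/- and none higher, against 1.34% of all genes lower. Wild type values chose the genes, so this is a description and no independent evidence of a genotype effect. The count of lower genes among the 76 was 8 without WT4 (10.7%, against 1.51% of all genes), 37 without WT3 (48.7%, against 2.56%), 31 without KO3 (40.8%, against 1.44%), 10 without KO1 (13.2%, against 2.02%) and 11 without KO2 (14.5%, against 0.929%).

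The median log2 fold change of the 76 was -0.87, beside 0.00 over all genes tested, and 72 of the 76 (94.7%) were below 0, against 49.2% of all genes. The exceptions were Stc1, Serpina3n, Cetn1 and Zfp429. The median was -0.29 without WT4, -1.20 without WT3, -1.36 without KO3 and -0.59 without KO1.

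The genes of the lists that are not among the 76 were read from the same fit. On the list of motile cilium genes outside the prefixes left out, 73 such genes were tested, none was called in either direction, 63 had a log2 fold change below 0, and the median was -0.18. On the pachytene list, 28 were tested, none was called, 22 were below 0 and the median was -0.09. On the list of acrosome, sperm surface and calcium channel genes, 19 were tested, none was called, 11 were below 0 and the median was -0.02. The testis energy isozymes (16 tested, none called) had a median of 0.07, and the sphingolipid genes (29 tested, none called) a median of 0.05. The transcription and chromatin factors of the meiotic program (36 tested) and the piRNA machinery (20 tested) held none of the 76 genes, had no call, and had medians of -0.01 and -0.10.

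Both genes left out by symbol are known for the pachytene program. Mybl1 did not meet the values, with a WT4 to WT3 ratio of 1.66, and stood at 1.65, 2.32, 2.38 and 3.95 CPM in WT1 to WT4 and 1.61, 3.14, 1.84 and 3.52 CPM in KO1 to KO4. These levels rest on 50 to 128 counts per library. Reads that overlapped more than 1 transcript are in no count, and the share of Mybl1 reads lost in this way was not tested. Piwil1, the Argonaute protein that binds pachytene piRNAs, met the values of the rule with a ratio of 7.78. It stood at 36.5, 46.5, 16.8 and 131 CPM in WT1 to WT4 and 15.5, 14.8, 14.8 and 15.5 CPM in KO1 to KO4, so that the 4 Morc2b-/- libraries lay within 1 CPM of each other and just below the library labelled WT3. That differed from most of the 76 genes, which varied among the Morc2b-/- testes. Also left out by name were Morc2b, Adam2, Ccdc60, Ccdc65, Cfap43, Cfap46, Cfap54, Cfap57, Cfap65, Dnah7a, Dnah7c, Rsph1, Spag17 and Spag6l.

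The 76 genes were then compared with all genes that had WT4 at 5 CPM or more for features that the rule had not used. By the chromosomes of RefSeq (GRCm38.p6), none of the 75 genes with a RefSeq entry lay on the X chromosome, against 3.72% of 8772 genes. There was none on chromosome 16 either, against 3.15%. Chromosome 15 held 7 of the 75 (9.33%, against 4.06%), chromosome 10 held 7 (9.33%, against 5.11%) and chromosome 7 held 10 (13.3%, against 7.75%). Non-coding genes or pseudogenes made up 8 of the 75 (10.7%, against 3.09%). These shares were not tested.

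By the mm9 annotation, in which 64 of the 76 were found, pairs within 500 kb of each other were few. Gml (74643884 to 74649245, minus strand) and Gml2 (74649501 to 74654866, plus strand) on chromosome 15 are 256 bp apart, and Mroh4 lies 177193 bp from Gml. In Morc2b-/- testes this neighbourhood was not uniform, since Gml and Gml2 reached 59.9 and 35.5 CPM in KO4, where Mroh4 stood at 1.86 CPM. Lypd11 and Lypd4 lie 138557 bp apart on chromosome 7. A gene annotated on the other strand overlapped 20 of the 64. The kit marks strand, but whether the counting used it is not given in the sources used here.

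Promoters, from 250 bases before to 50 bases after the transcription start, were found in RefSeq (GRCm38.p6) for 57 of the 76 genes. There was none for Mroh4, 1700006A11Rik and Smpd5. Motifs were searched as letters on either strand. The core of MYB proteins, AACNG, was present in 89.5% of the 57, against 77.7% of 6963 genes with WT4 at 5 CPM or more. The longer core AACNGC, which holds the shorter one, was present in 54.4%, against 37.3%. The half-site of RFX proteins, regulators of ciliary genes, GTTGCC, was present in 36.8%, against 13.2%. The cyclic AMP response element TGACGTCA (1.75%, against 3.50%) and the E-box CACGTG (10.5%, against 11.02%) were near or below the level of all genes. A match is a description of letters and shows no binding.

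**Figure D5:**
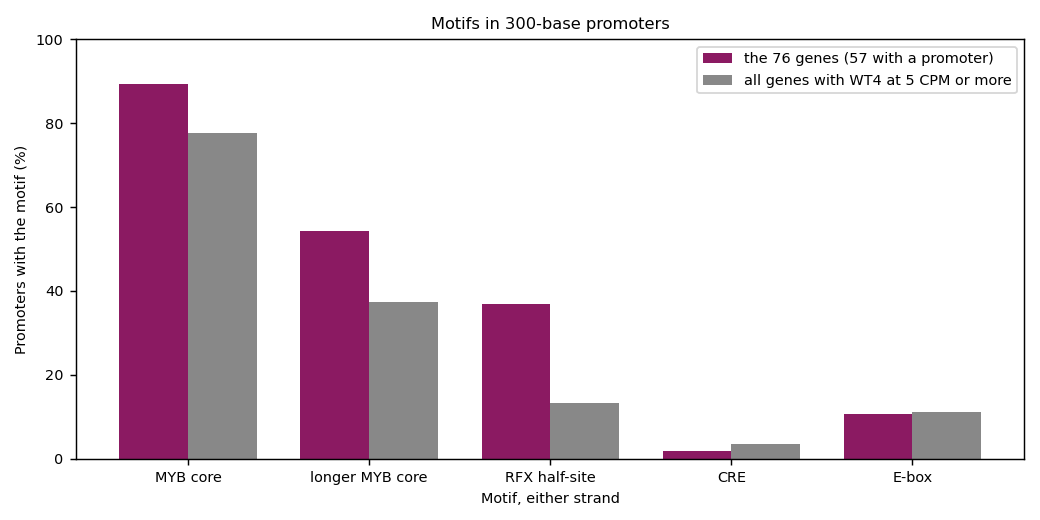
Share of promoters with each motif (vertical axis, percent, from 0) for the 57 of the 76 genes with a promoter (purple) and for the 6963 genes with WT4 at 5 CPM or more (grey). The largest gap was that of the RFX half-site, 36.8% against 13.2%, followed by the longer MYB core.

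The 150 bases before the start are shown for the genes named above whose stretch holds the longer MYB core, since MYBL1 is the factor known for this program. Capitals mark AACNGC on either strand, and the last base is the one before the start. 4930444F02Rik (chr10:18831931-18832080, minus strand), low in every Morc2b-/- library, is set beside Cntd1 (chr11:101279053-101279202, plus strand) and Tktl2 (chr8:66511590-66511739, plus strand), high in KO4, and Gk2 (chr5:97457024-97457173, minus strand), Ldhal6b (chr17:5418768-5418917, minus strand), Mdh1b (chr1:63730319-63730468, minus strand) and Wdr63 (chr3:146108037-146108186, minus strand), high in KO3, all in GRCm38.p6 coordinates.
4930444F02Rik: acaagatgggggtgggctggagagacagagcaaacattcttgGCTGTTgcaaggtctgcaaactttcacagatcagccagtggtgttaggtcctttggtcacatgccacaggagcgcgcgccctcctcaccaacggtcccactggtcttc
Cntd1: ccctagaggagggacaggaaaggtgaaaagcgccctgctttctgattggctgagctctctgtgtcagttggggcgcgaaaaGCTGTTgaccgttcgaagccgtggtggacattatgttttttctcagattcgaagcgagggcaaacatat
Tktl2: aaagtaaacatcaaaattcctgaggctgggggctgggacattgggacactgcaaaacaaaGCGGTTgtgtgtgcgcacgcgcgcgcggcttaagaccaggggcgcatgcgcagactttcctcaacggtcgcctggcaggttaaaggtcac
Gk2: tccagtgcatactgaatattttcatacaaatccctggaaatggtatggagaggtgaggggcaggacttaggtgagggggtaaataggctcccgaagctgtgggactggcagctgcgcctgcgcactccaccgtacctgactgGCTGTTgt
Ldhal6b: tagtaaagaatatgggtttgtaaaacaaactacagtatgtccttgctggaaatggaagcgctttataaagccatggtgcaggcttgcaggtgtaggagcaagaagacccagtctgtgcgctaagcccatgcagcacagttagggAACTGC
Mdh1b: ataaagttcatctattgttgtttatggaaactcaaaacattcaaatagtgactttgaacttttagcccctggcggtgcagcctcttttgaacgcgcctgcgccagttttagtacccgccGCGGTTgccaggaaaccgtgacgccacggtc
Wdr63: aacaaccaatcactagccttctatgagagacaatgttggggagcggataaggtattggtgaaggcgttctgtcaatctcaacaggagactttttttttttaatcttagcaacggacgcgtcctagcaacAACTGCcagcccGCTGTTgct

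In the stretch shown, the motif starts 108 bases before the start in 4930444F02Rik, 69 in Cntd1 and 90 in Tktl2. It starts there within 31 bases of the start in Gk2, Ldhal6b, Mdh1b and Wdr63, where Wdr63 has 2 copies, at 21 and 9 bases. Outside the stretch shown, 4930444F02Rik has another copy 3 bases after the start. Ldhal6b has others 199 bases before and 42 bases after the start. Genes that were low in all Morc2b-/- libraries and genes that rose in some of them thus share these letters. Over the 57, the median ratio of the Morc2b-/- mean to the wild type mean was 0.469 for the 31 with the longer core and 0.627 for the 26 without it, with ranges of 0.0370 to 0.987 and 0.123 to 1.08.

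The RFX half-site is shown in the same stretch, in capitals, for the genes named above that hold it, as it was the motif whose share stood furthest above that of all genes. They are Fank1 (chr7:133776741-133776890, plus strand), Lrrc34 (chr3:30647819-30647968, minus strand), Tsnaxip1 (chr8:105827594-105827743, plus strand), Spata4 (chr8:54600631-54600780, plus strand), Spesp1 (chr9:62282180-62282329, minus strand), Fbp1 (chr13:62888283-62888432, minus strand) and 1700102P08Rik (chr9:108392684-108392833, plus strand), again in GRCm38.p6, besides Mdh1b above.
Fank1: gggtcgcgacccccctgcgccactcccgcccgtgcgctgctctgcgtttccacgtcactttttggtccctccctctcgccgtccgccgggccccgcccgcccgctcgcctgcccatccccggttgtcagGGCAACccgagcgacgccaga
Lrrc34: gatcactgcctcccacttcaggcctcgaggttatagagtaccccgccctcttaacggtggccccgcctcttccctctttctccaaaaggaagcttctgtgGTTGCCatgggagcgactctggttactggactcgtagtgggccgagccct
Tsnaxip1: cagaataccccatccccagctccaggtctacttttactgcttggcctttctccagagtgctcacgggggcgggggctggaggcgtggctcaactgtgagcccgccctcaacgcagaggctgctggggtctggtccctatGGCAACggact
Spata4: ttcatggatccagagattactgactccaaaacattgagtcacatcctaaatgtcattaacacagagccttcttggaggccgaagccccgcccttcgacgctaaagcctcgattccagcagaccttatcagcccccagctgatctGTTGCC
Spesp1: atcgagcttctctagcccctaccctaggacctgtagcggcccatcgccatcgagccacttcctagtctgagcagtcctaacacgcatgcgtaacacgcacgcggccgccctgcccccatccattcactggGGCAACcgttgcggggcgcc
Fbp1: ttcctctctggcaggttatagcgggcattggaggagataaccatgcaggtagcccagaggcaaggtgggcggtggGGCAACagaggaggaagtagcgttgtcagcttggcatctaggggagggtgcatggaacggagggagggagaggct
1700102P08Rik: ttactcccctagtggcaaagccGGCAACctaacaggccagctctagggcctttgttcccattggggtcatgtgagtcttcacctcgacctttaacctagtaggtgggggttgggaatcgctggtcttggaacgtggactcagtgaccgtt

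In 5 of these 7 the half-site starts within 50 bases before the start, and 1700102P08Rik has another 14 bases after it. Of the 7, 3, Fank1, Lrrc34 and Tsnaxip1, are on the cilium list. In Mdh1b it overlaps the longer MYB core, starting at 28 and 31 bases before the start. The median ratio of means was 0.531 for the 21 genes with the half-site and 0.578 for the 36 without it.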

How the data were processed

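RNA-seq was performed on testis RNA of 8 day 12 males, and libraries were made with a kit that marks strand. The authors trimmed reads and mapped them with Tophat to mm9 (NCBI37). The deposited values are raw counts of each RefSeq transcript, in 1 file per sample, neither pooled nor normalized. Per the labels, Cufflinks and Cuffdiff were also used, and their values were not used here. The counting program and its strand setting are not given in the sources used here. Reads that overlapped more than 1 transcript, 26.8 to 28.8% of the uniquely aligned reads tallied, are in no count, and 72 of the 76 genes had 1 listed transcript.

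Of 35819 transcripts, 35522 were matched to a symbol through RefSeq, and counts were summed per symbol. CPM is relative to each library's total. The comparison of genotypes used edgeR 4.0.16 under R 4.3.3 (TMM, filterByExpr, glmQLFTest, genotype only, Benjamini-Hochberg adjustment over 13507 genes, threshold 0.05), which was tested on simulated data. The TMM factors ran from 0.983 to 1.01. The edgeR p-values set the difference between genotypes against the spread between these samples, with the spread moderated across genes. Positions came from the mm9 annotation and promoters from RefSeq. DESeq2 1.42.0, RLE factors, other filters, the replicate number as a block, left-out samples and other thresholds of the rule were alternatives.

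The genes and lists were chosen with earlier results of these data known. Named are Morc2b, the 4 marker genes, the 12 genes with the highest mean CPM, the 10 with the highest ratio of WT4 to WT3, those on any list, the 5 with the lowest and the 5 with the highest ratio of means, the 3 nearest to the threshold on each side, those with a Morc2b-/- library at or above WT4, and Piwil1 and Mybl1. Ptchd3, Lypd10, Lypd11, Fbp1, Meikin, Spesp1, Iqcd and Gm6567 are named besides and were chosen after their values were seen. Figures were drawn with matplotlib 3.10.9.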

Additional observations from a re-analysis of the deposited data

Results flagged for a closer look

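Among the 4 samples of a genotype, a highest or lowest sample was marked where its gap to the next sample passed Dixon's 95% critical value for its share of the range. In groups chosen without regard to their values, chance marks about 1 in 20. Here 23 values were marked in 120 groups, which share libraries, 17 of them in KO3. That rate does not apply to these groups, since the rule chose genes low in WT3 and high in WT4. Some genes, such as Spata4 and Eid3, were also named because a Morc2b-/- library was at or above WT4. The number of marks in KO3 is thus partly set by the choice of genes.

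KO3 stood apart as the highest Morc2b-/- library for 1700006A11Rik (1.50 CPM), Smpd5 (3.89), Ldhc (104), Fabp9 (43.4), Odf4 (3.28), 4921525O09Rik (0.749), 4932414N04Rik (3.14) and Clec2m (36.4). It did so as well for Wdr63 (2.25 CPM), Tsnaxip1 (4.64), Dnali1 (4.61), Gk2 (16.9), Cetn1 (19.105), Spata4 (27.0), Eid3 (10.1) and Morc2b (3.31). The summed CPM of the spermatid list was far above the other Morc2b-/- libraries in KO3 (435), and above the other wild type libraries in WT1 (219). WT1 also stood apart in the summed CPM of the peritubular list (2574), the blood list (6.03) and the epididymal list (603). The blood sum rests on 3 of 10 listed genes, as the others, among them the globin genes Hba-a1 and Hbb-bs, were at 0 in all libraries.

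Zfp429 was marked at its lowest library in both genotypes, with 0.613 CPM in WT3 and 0.355 CPM in KO1, beside 7.04 to 8.65 CPM in the other libraries.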

How the results depend on the processing

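None of the 76 genes passed an adjusted p of 0.05 under any of the 15 other settings. Over all genes, DESeq2 called 1 (Pkmyt1) and the other settings 0. The median log2 fold change of the 76 stayed below 0 in every setting, from -1.36 to -0.29 when samples were left out in turn. Settings chosen after seeing the data gave -1.28 without WT1 and KO3 and -0.73 without WT3 and WT4.

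A floor of 10 CPM left 48 genes and a floor of 2 CPM gave 132. TMM-scaled CPM gave 77, single transcripts 76, a ratio of 3 gave 87 and a ratio of 6 gave 62. When Morc2b-/- replicates were left out in turn, 22 to 49 genes had a highest to lowest ratio of at least 4, 28 to 54 had every Morc2b-/- library below WT1, WT2 and WT4, and KO1 was lowest in 64 to 67.

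Of the 44 named genes' log2 fold changes, 10 changed sign in some setting, and the cause was not tested. With samples left out in turn, Ldhc ran from -2.33 to 0.0103, Gm11837 from -0.75 to 0.00104, Clec2m from -2.12 to 0.63, Gk2 from -1.99 to 0.27, Stc1 from -0.16 to 0.65, Serpina3n from -0.26 to 0.51, Cetn1 from -1.54 to 0.54, Zfp429 from -0.33 to 0.44, Spata4 from -1.59 to 0.27 and Eid3 from -1.80 to 0.17. Without WT1 and KO3, Serpina3n was at -0.19, Cetn1 at -1.08 and Zfp429 at -0.0081. Without WT3 and WT4, Clec2m was at 0.089, Serpina3n at -0.21, Cetn1 at -0.15 and Zfp429 at -0.27.

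The correlations of same-numbered samples' deviations were -0.156, 0.245, -0.322 and 0.453 for replicates 1 to 4. They had no common sign, and no correlations of differently numbered samples were set beside them. Whether the replicate numbers pair the samples was therefore not settled. In the fit blocked by replicate number (replicate block), 0 genes were called, the median of the 76 was -0.94, Cetn1 was at -0.67 and Zfp429 at -0.029.

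Counts on transcripts differed 1.36-fold at most between libraries. Genes at 0 or a few counts in WT3, KO1, KO2 or KO4 have ratios that rest on few reads. Odf4 had 1 count in KO4, and 1700006A11Rik had 3 in KO2 and 1 in KO4. Gm21269, at 0 in KO2 and KO4, is among the 50 genes with a highest to lowest Morc2b-/- ratio of 4 or more.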
